A study of Mus musculus with 4 samples.

Results

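The genes described here are 47 genes of ribosome synthesis: the RNA polymerase I machinery that transcribes ribosomal RNA, the small nucleolar ribonucleoproteins (snoRNPs) that modify it, and the assembly factors that cut and fold it into the subunits. They were taken by gene symbol from the deposited expression table, which lists 22186 genes, and all 47 were found in it. Expression was measured by RNA sequencing in MC38 cells, a mouse colon carcinoma line, that stably carried TetOn-CXCL14, a construct in which doxycycline switches on the chemokine CXCL14. The DOX group was 2 cultures given 1 µg/mL doxycycline, and the Control group was 2 cultures of the same line given an equal volume of PBS, both kept for 72 h before harvest. The treatment protocol gives these controls, while the series text describes them as cells collected before induction; it speaks of biological replicates. Whether the line is a single clone is not given in the sources used here. Cells lacking the construct were not given doxycycline, so an effect of the drug and an effect of CXCL14 cannot be told apart.

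Ribosomes are made mainly in the nucleolus, where RNA polymerase I transcribes one long precursor. Box C/D snoRNPs direct ribose methylation of that precursor, and H/ACA snoRNPs direct pseudouridylation. The small subunit processome folds and cuts the part that becomes the small subunit, while a separate series of assembly factors matures the large subunit. In tumour cells this machinery is a well-known transcriptional target of MYC.

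Levels are in TPM (transcripts scaled to a fixed total), a length-scaled share of the RNA in a library, so the amount of RNA per cell was not measured. All changes below are of RNA, as protein was not measured in these libraries. In bulk RNA, fewer cells of a type and less RNA per cell cannot be told apart. Read counts are not given, so the depth behind each value is unknown. Cxcl14, the induced gene, was at 385 and 391 TPM in the DOX libraries, against 27.3 and 29.2 TPM in the Control libraries. All 14 markers of colon epithelium that were examined stayed below 1 TPM in every library, and Cdh1, Krt19, Cdx1 and Cdx2 were listed at 0 in all 4, so the labelled epithelial origin did not show in its defining markers. Of 9 fibroblast markers, 5 were tested, of which 0 rose and 4 fell, while 29.0% of all genes tested rose and 35.4% fell. The 9 markers summed to 909 and 823 TPM in the DOX libraries, against 4053 and 4205 TPM in the Control libraries, with Thy1 at 0 in all. Of 11 macrophage markers, Laptm5, C1qa and C1qc were at 0 in all libraries, and the list summed to 13.6 and 15.5 TPM in the DOX libraries, against 48.0 and 46.8 TPM in the Control libraries. The 5 lymphocyte markers summed to at most 0.460 TPM in a library. The part of these marker changes in the results below was not tested.

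All 47 genes rose after doxycycline. Together they held 9605 and 9508 TPM in the DOX libraries, or 0.960% and 0.951% of the fixed TPM total, against 5040 and 5170 TPM in the Control libraries, or 0.504% and 0.517%. That is 1.87 times as much. For each of the 47 genes, both DOX libraries lay above both Control libraries, which held for 37.7% of all genes tested. At an adjusted p under 0.05 (limma on log2(TPM + 1), Benjamini-Hochberg over 11359 genes), 47 of 47 rose and 0 fell, against a background of 29.0% of tested genes that rose and 35.4% that fell, 64.4% in all. The 47 genes were chosen with earlier results of these data known, so these shares are a description and no test of the set. The median log2 fold change of the 47 was 0.86, and that of all genes tested was -0.04. In 17 of the 47 the log2 fold change was at least 1 in a gene that passed the test, as in 3.48% of all genes tested. Npm1, Nop56, Ddx18, Fbl, Mrto4 and Wdr12 share near-identical stretches with pseudogenes, so their levels are uncertain where reads were shared. The longest stretch per gene ran from 124 bases (Fbl) to 1984 bases (Ddx18). The smallest change was 1.15-fold, for Rrn3, and the largest was 2.76-fold, for Nop56. With 2 libraries against 2, an exact permutation test of one gene cannot go below p = 0.33 (two-sided), so each call depends on limma's pooling of the spread over genes.

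**Figure D1:**
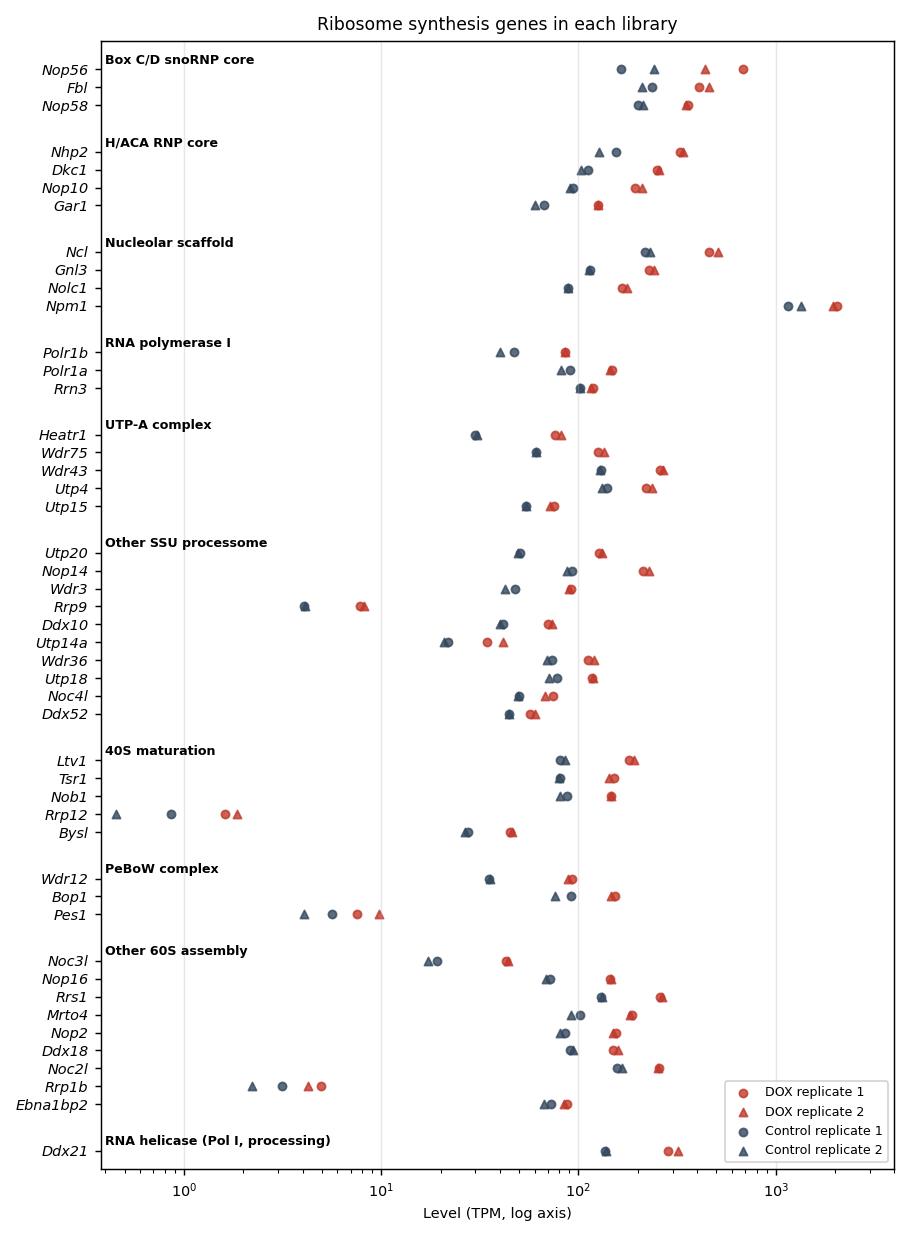
Level of each of the 47 genes in TPM (log axis) in the 2 DOX libraries (red) and the 2 Control libraries (blue-grey), with a circle for replicate 1 and a triangle for replicate 2, grouped by role. In every row both red points lie to the right of both blue-grey points, and 4 genes, Rrp12, Rrp1b, Rrp9 and Pes1, lie below 10 TPM in all libraries.

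**Figure D2:**
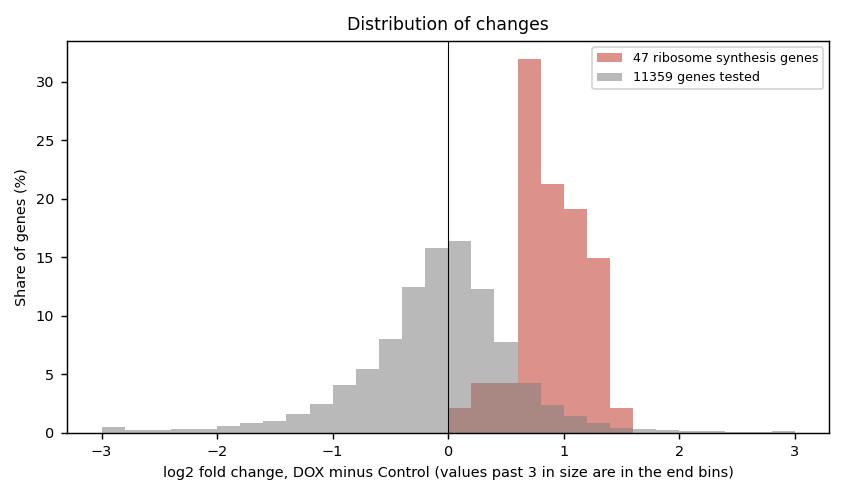
Share of genes (%) in bins of log2 fold change (DOX minus Control) for the 47 ribosome synthesis genes (red) and the 11359 genes tested (grey). The red bars hold values from 0.20 to 1.45, while the grey bars centre near 0.

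The genes of RNA polymerase I itself rose moderately. Polr1a and Polr1b encode its largest subunits, which form the catalytic centre. Polr1a was at 148 and 144 TPM in the DOX libraries, against 90.9 and 81.9 TPM in the Control libraries (log2 fold change 0.75, SE 0.07, limma adjusted p = 1.3e-05). Polr1b was at 85.6 and 85.9 TPM in the DOX libraries, against 47.1 and 39.99 TPM in the Control libraries (log2 fold change 0.97, SE 0.08, limma adjusted p = 8.7e-06). Both groups were well separated for each subunit. Rrn3, the initiation factor that brings the polymerase to the ribosomal DNA promoter, changed least of the 47 genes. Its libraries were at 118 and 116 TPM in the DOX group, against 102 and 102 TPM in the Control group (log2 fold change 0.20, SE 0.06, limma adjusted p = 0.0145). The Rrn3 groups did not overlap, but its call was lost under quantile normalization (adjusted p = 0.059), and when either DOX library was left out (0.10 without replicate 1, 0.062 without replicate 2), and its limma adjusted p ran over 0.0046 to 0.10 in 14 alternatives.

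Among 15 further genes of RNA polymerase I and its promoter factors, 11 rose and 0 fell, with a median log2 fold change of 0.33. The background for this list and the further lists below is 29.0% of tested genes that rose and 35.4% that fell. The largest rises were of Mybbp1a, a nucleolar protein that binds the polymerase, at 389 ± 5.32 TPM in DOX and 219 ± 10.4 TPM in Control (SD, n = 2 each), of the subunit gene Twistnb, now named Polr1f, at 65.3 ± 6.02 TPM and 37.7 ± 1.55 TPM, and of Taf1a, a subunit of the promoter selectivity factor, at 31.2 ± 0.922 TPM and 19.8 ± 1.39 TPM, DOX before Control in each case. The 4 that did not pass were Ubtf, which encodes the upstream binding factor of the ribosomal DNA promoter (log2 fold change 0.12), Top1 (0.07), Baz2a (-0.09) and the terminator protein gene Ttf1 (-0.10).

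The genes of the box C/D snoRNP core proteins rose. Fbl encodes fibrillarin, the methyltransferase, and was at 410 and 461 TPM in the DOX libraries, against 237 and 211 TPM in the Control libraries (log2 fold change 0.96, SE 0.08, limma adjusted p = 7.4e-06). Nop58, a scaffold protein of the particle, was at 357 and 351 TPM in the DOX libraries, against 200 and 211 TPM in the Control libraries (log2 fold change 0.78, SE 0.06, limma adjusted p = 4.3e-06). Its partner Nop56 had the largest log2 fold change of the 47 genes and the largest standard error: 686 and 438 TPM in the DOX libraries, against 164 and 242 TPM in the Control libraries (log2 fold change 1.45, SE 0.21, limma adjusted p = 2.5e-04). The lower DOX library of Nop56 still lay above the higher Control library. Across alternatives its log2 fold change ran over 1.13 to 1.78, at the low end below that of Heatr1 (at least 1.31 in all alternatives). Its call was lost under a robust variance model (adjusted p = 0.072, range over 14 alternatives 5.0e-09 to 0.072).

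The genes of all 4 core proteins of the H/ACA ribonucleoproteins, which also form part of telomerase, rose, to 1.97 to 2.38 times the Control level. These genes kept their order of level. Differences in change among them were not tested. Dkc1, the pseudouridine synthase dyskerin, was at 249 and 256 TPM in the DOX libraries, against 111 and 103 TPM in the Control libraries (log2 fold change 1.23, SE 0.06). Nhp2 was at 329 and 340 TPM in the DOX libraries, against 154 and 127 TPM in the Control libraries (1.25, SE 0.09). In both genes the libraries of a group lay far closer together than the groups did. Nop10 was at 195 and 210 TPM in the DOX libraries, against 93.7 and 90.9 TPM in the Control libraries (1.12, SE 0.06). Gar1 was at 126 and 126 TPM in the DOX libraries, against 67.0 and 60.4 TPM in the Control libraries (0.97, SE 0.07). The limma adjusted p of these 4 was at most 2.6e-06. Summed, the H/ACA core genes were 2.27 times as high in DOX as in Control, and the box C/D core genes 2.14 times.

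Of 13 further genes of snoRNP assembly, 8 rose and 0 fell, with a median log2 fold change of 0.45. Tcof1, which encodes treacle, a nucleolar protein of ribosomal DNA transcription and rRNA modification, was at 202 ± 5.62 TPM in DOX and 79.8 ± 4.70 TPM in Control (SD, n = 2 each; log2 fold change 1.33). Ruvbl2, an ATPase of the snoRNP assembly chaperone, was at 268 ± 2.72 TPM in DOX and 132 ± 9.87 TPM in Control (1.02). Snu13, the remaining box C/D core gene, rose by 0.78 on the log2 scale. Shq1, Nufip1, Rpap3, Coil and AI597479 did not pass, with log2 fold changes from -0.17 to 0.11.

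The genes of abundant nucleolar proteins rose as well. Npm1, which encodes the histone and ribosome chaperone nucleophosmin, was by far the highest of the 47, at 2036 and 1945 TPM in the DOX libraries, against 1154 and 1339 TPM in the Control libraries (log2 fold change 0.68, SE 0.09, limma adjusted p = 1.2e-04). It held 21.2% and 20.5% of the summed TPM of the 47 genes in the DOX libraries, against 22.9% and 25.9% in the Control libraries. Ncl, which encodes the RNA-binding protein nucleolin, was at 461 and 508 TPM in the DOX libraries, against 217 and 232 TPM in the Control libraries (1.11, SE 0.07). In both genes the gap between the groups was several times the spread within them. Gnl3, which encodes the GTP-binding protein nucleostemin, was at 229 and 243 TPM in the DOX libraries, against 114 and 113 TPM in the Control libraries (1.05, SE 0.06). Nolc1, a chaperone of snoRNPs, was at 166 and 177 TPM in the DOX libraries, against 88.7 and 88.1 TPM in the Control libraries (0.95, SE 0.06). Ddx21, an RNA helicase of RNA polymerase I transcription and rRNA processing, was at 284 and 319 TPM in the DOX libraries, against 137 and 137 TPM in the Control libraries (1.13, SE 0.07). For Ncl, Gnl3, Nolc1 and Ddx21 the limma adjusted p was at most 1.5e-06.

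The small subunit processome was represented by 15 of the 47 genes. Of these, 5 encode the UTP-A complex, which binds the nascent precursor first and links its transcription to its processing. Within UTP-A, Heatr1 was at 76.3 and 81.6 TPM in the DOX libraries, against 30.1 and 30.4 TPM in the Control libraries (log2 fold change 1.35, SE 0.07, limma adjusted p = 3.6e-07). Wdr75 was at 126 and 134 TPM in the DOX libraries, against 61.0 and 61.1 TPM in the Control libraries (1.08, SE 0.06). Wdr43 was at 259 and 268 TPM in the DOX libraries, against 130 and 129 TPM in the Control libraries (1.02, SE 0.06). The Control libraries of these genes lay within 1 TPM of each other. Utp4 and Utp15 rose less, with log2 fold changes of 0.75 (SE 0.06) and 0.42 (SE 0.06). The difference in change between subunits was not tested.

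In the rest of the processome, Utp20, a large scaffold protein, was at 127 and 131 TPM in the DOX libraries, against 50.7 and 49.4 TPM in the Control libraries (log2 fold change 1.35, SE 0.06, limma adjusted p = 2.0e-07). Nop14 was at 212 and 229 TPM in the DOX libraries, against 92.5 and 87.3 TPM in the Control libraries (1.28, SE 0.07), while Noc4l, whose yeast counterpart binds that of Nop14, rose by 0.51 on the log2 scale (SE 0.07). Wdr3 was at 91.7 and 89.5 TPM in the DOX libraries, against 47.5 and 42.4 TPM in the Control libraries (1.00, SE 0.07). The groups of all 4 genes were well apart. The log2 fold changes of Utp14a, the RNA helicase gene Ddx10, Wdr36 and Utp18 lay between 0.66 and 0.80, and that of Ddx52, also an RNA helicase gene, was 0.39 (SE 0.07). Of 33 further processome genes, 27 rose and 0 fell, with a median of 0.66. The largest of these rises were of Esf1 (log2 fold change 1.31), Pwp2 (1.15) and Utp25 (1.13). The 6 that did not pass were Bms1, Ddx47, Ddx49, Utp23, Rrp7a and Rrp36.

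**Figure D3:**
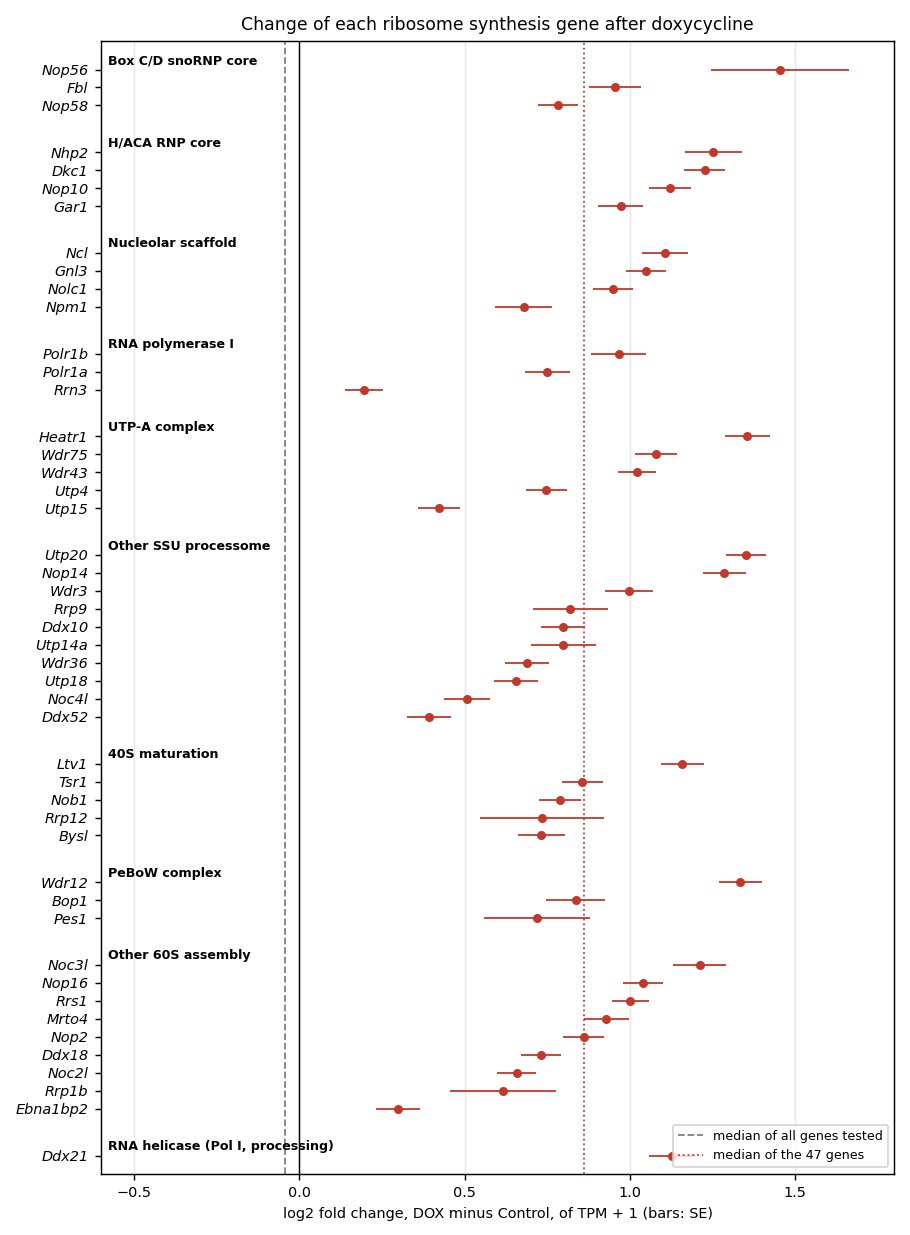
Log2 fold change (DOX minus Control, of TPM + 1) of each of the 47 genes with its standard error, grouped by role and sorted within each role. The dotted line is the median of the 47 genes (0.86) and the dashed line that of all genes tested (-0.04), and every gene lies to the right of 0, from Rrn3 at 0.20 to Nop56 at 1.45.

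The genes of late small subunit maturation factors rose. Ltv1, which is needed for the export and final folding of the small subunit, was at 180 and 192 TPM in the DOX libraries, against 80.4 and 85.2 TPM in the Control libraries (log2 fold change 1.16, SE 0.06, limma adjusted p = 6.3e-07). Tsr1, a GTPase-like assembly factor, was at 151 and 142 TPM in the DOX libraries, against 81.1 and 80.1 TPM in the Control libraries (0.86, SE 0.06). Nob1, the endonuclease that makes the last cut in the small subunit rRNA, was at 146 and 147 TPM in the DOX libraries, against 87.9 and 80.8 TPM in the Control libraries (0.79, SE 0.06). The groups of these genes did not approach each other. Bysl rose by 0.73 on the log2 scale (SE 0.07). Of 11 further genes of this step, 10 rose and 0 fell (median 0.41), led by Pno1 (1.06), Tsr2 (1.05) and the rRNA dimethyltransferase gene Dimt1 (0.84), while the kinase gene Riok2 did not pass (0.01).

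On the large subunit side, the PeBoW complex of Pes1, Bop1 and Wdr12 is required to process the large subunit rRNA. The genes of all its parts rose. Wdr12 was at 93.2 and 88.3 TPM in the DOX libraries, against 35.3 and 35.5 TPM in the Control libraries (log2 fold change 1.33, SE 0.07, limma adjusted p = 3.1e-07). Bop1 was at 154 and 146 TPM in the DOX libraries, against 91.8 and 75.7 TPM in the Control libraries (0.84, SE 0.09, limma adjusted p = 3.6e-05). Pes1 was at 7.55 and 9.72 TPM in the DOX libraries, against 5.66 and 4.08 TPM in the Control libraries (0.72, SE 0.16, limma adjusted p = 0.0036). Pes1 was listed far below its partner Bop1, with 8.64 TPM for Pes1 and 150 TPM for Bop1 in DOX, and 4.87 TPM and 83.7 TPM in Control.

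Among the other large subunit factors, Noc3l was at 43.1 and 43.9 TPM in the DOX libraries, against 19.1 and 17.4 TPM in the Control libraries (log2 fold change 1.21, SE 0.08, limma adjusted p = 1.7e-06). Nop16 was at 145 and 147 TPM in the DOX libraries, against 72.1 and 68.6 TPM in the Control libraries (1.04, SE 0.06). Rrs1, whose yeast counterpart helps to place a small RNA in the large subunit, was at 259 and 266 TPM in the DOX libraries, against 130 and 131 TPM in the Control libraries (1.00, SE 0.06). In these 3 genes DOX levels were 2.010 to 2.384 times as high, and replicates lay close together. Mrto4 rose by 0.93, the rRNA cytosine methyltransferase gene Nop2 by 0.86, the helicase gene Ddx18 by 0.73 and Noc2l by 0.66 on the log2 scale. Ebna1bp2 rose least, at 87.4 and 84.5 TPM in the DOX libraries, against 72.6 and 66.8 TPM in the Control libraries (0.30, SE 0.07, limma adjusted p = 0.0035). Of 53 further large subunit genes, 46 rose and 1 fell, with a median of 0.66. The nucleoplasmin family gene Npm3 (1.19), the giant ATPase gene Mdn1 (1.17) and Pwp1 (1.12) rose most. The one that fell was Rrp1, at 10.3 ± 1.01 TPM in DOX and 13.4 ± 0.917 TPM in Control (log2 fold change -0.35, limma adjusted p = 0.017, range over 14 alternatives 0.012 to 0.28), whose call was lost with no filter (0.062), under quantile normalization (0.28), without Control replicate 1 (0.10) and without DOX replicate 1 (0.12), with log2 fold changes over -0.44 to -0.14.

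The 4 genes of the 47 that stood under 10 TPM were Rrp12, Rrp1b, Rrp9 and Pes1, with means over the 4 libraries of 1.20 to 6.75 TPM. The next lowest was Utp14a at 29.7 TPM. Rrp12, whose yeast counterpart acts in subunit export, was at 1.61 and 1.87 TPM in the DOX libraries, against 0.861 and 0.454 TPM in the Control libraries (log2 fold change 0.73, SE 0.19, limma adjusted p = 0.0071). With a pseudocount of 0.1 that change was 1.33, and the ratio of means was 2.65. Rrp1b was at 4.97 and 4.23 TPM in the DOX libraries, against 3.14 and 2.21 TPM in the Control libraries (0.62, SE 0.16, limma adjusted p = 0.0080). Its change was 0.94 under quantile normalization, and its call was lost without Control replicate 2 (adjusted p = 0.056, range over 13 alternatives 0.0013 to 0.056). Rrp9, which binds the snoRNA of the processome, was at 7.79 and 8.14 TPM in the DOX libraries, against 4.05 and 4.11 TPM in the Control libraries (0.82, SE 0.11). The Control libraries of Rrp12, Rrp1b and Pes1 differed by 1.89, 1.42 and 1.39 times. In 43 of the 47 genes replicates lay within 1.3 times of each other, the exceptions being these 3 and Nop56. Without the 4 genes under 10 TPM, a choice made after the data were seen, 43 of 43 rose with a median of 0.95.

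The full mouse names of these 4 genes hold the word "ribosomal" (the names are general knowledge, not taken from the deposited tables). Further genes with the word were then examined, a choice made after values were seen. Most but not all had means under the lowest mean of the other 43 genes described. The 8 genes with Rrp symbols, 3 of the 4 among them, had means of 1.20 to 11.9 TPM over the 4 libraries. Rsl1d1, a nucleolar protein, was at 22.4 and 24.2 TPM in the DOX libraries, against 14.4 and 12.1 TPM in the Control libraries (log2 fold change 0.78). The 10 ribosomal protein S6 kinase genes, which encode kinases and no part of the ribosome, had means of 0.157 to 4.05 TPM. The 78 genes with Mrpl or Mrps symbols, which encode mitochondrial ribosomal proteins, had means of 0.343 to 25.5 TPM (median 2.96), all under the lowest of the other 43. The 86 genes with Rpl or Rps symbols, S6 kinases left out, had means of 0 to 128 TPM (median 21.1). Of these 86, 55 lay under the lowest of the other 43 and 31, Rpl5 among them, did not. That cut comes from genes of ribosome synthesis, so it does not show whether the listed levels of the 31 are true. A few ribosomal protein genes without the word in their names, also picked after their values were seen, were listed higher. Fau was at 1609 and 1617 TPM in the DOX libraries, against 1491 and 1422 TPM in the Control libraries, and the mitochondrial ribosomal protein genes Ptcd3, Chchd1, Dap3 and Aurkaip1 had means of at least 66.8 TPM. Whether a step of the upstream processing lowered the listed values of genes named this way is not given in the sources used here and was not tested, so the levels of Rrp12, Rrp1b, Rrp9 and Pes1 are uncertain. TPM are shares of a fixed total, so the levels of the other genes, and their shares of that total, carry this uncertainty as well. The summed level of the 4 genes was 1.87 times as high in DOX as in Control, as was that of the other 43.

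**Figure D4:**
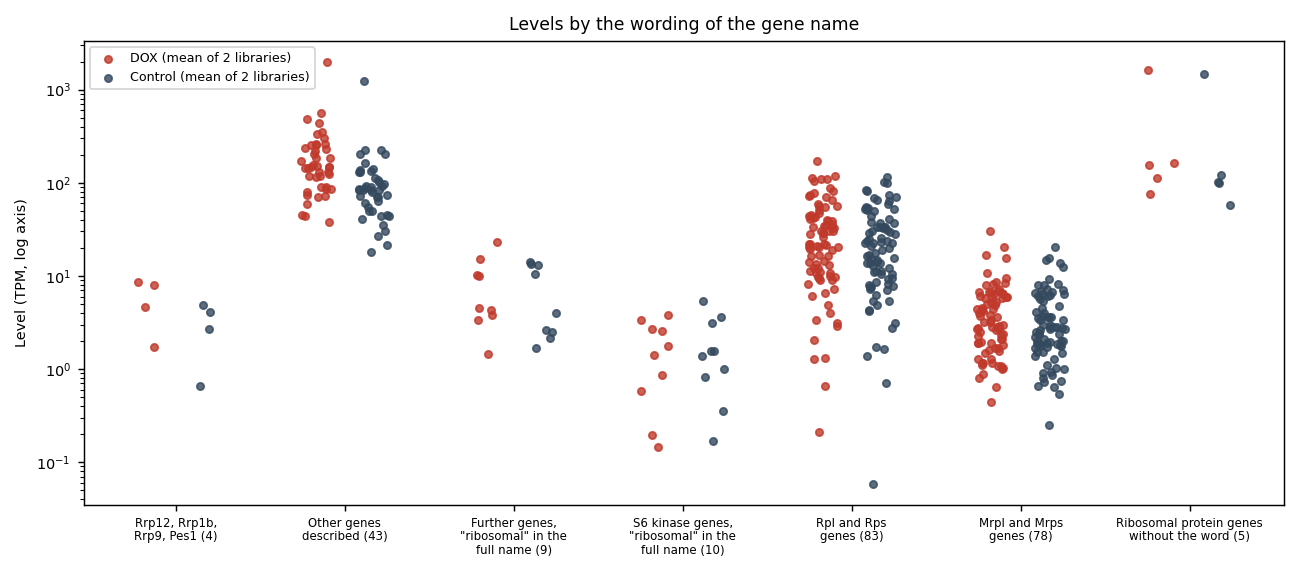
Mean level in TPM (log axis) of each gene in DOX (red, left) and in Control (blue-grey, right), each over 2 libraries, for Rrp12, Rrp1b, Rrp9 and Pes1, the other 43 genes described, 9 further genes and 10 S6 kinase genes with "ribosomal" in their names, the Rpl and Rps genes (3 listed at 0 in all libraries are not drawn), the Mrpl and Mrps genes, and 5 ribosomal protein genes without the word. The 4 genes lie below the other 43, whose means over all libraries start at 29.7 TPM, while the Rpl and Rps genes overlap both, with a median of 21.1 TPM.

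Across the 5 lists of further RNA polymerase I, snoRNP, processome, small subunit and large subunit genes, 102 of 125 rose and 1 fell, with a median log2 fold change of 0.57. The further lists, too, were chosen with earlier results of these data known, so their counts are a description. Beside the background of 29.0%, genes of related machines also rose in part. Of 16 tested genes of the RNA exosome, which trims precursor RNA, and its cofactors, 12 rose and 0 fell (median 0.48). Dis3, its catalytic nuclease, was at 367 ± 21.9 TPM in DOX and 78.3 ± 4.12 TPM in Control (SD, n = 2 each; log2 fold change 2.22, limma adjusted p = 2.7e-08), ahead of Exosc5 and Exosc2 (1.06 each). Of the 12 core subunits of RNA polymerase II, 10 rose and 0 fell (median 0.40), with Polr2d (0.90), Polr2h (0.68) and Polr2f (0.57) first. Of 22 genes of RNA polymerase III and its factors, 14 rose and 5 fell (median 0.31). Polr3e (0.89) and Polr3b (0.77) were among those that rose, whereas the alternative subunit genes Polr3g (-0.39) and Polr3gl (-0.49), Gtf3c5 (-0.41), Gtf3c1 (-0.25) and Maf1, a repressor of that polymerase (-0.29), fell. The call of Gtf3c1 was lost without DOX replicate 2 (adjusted p = 0.11). Rpl5 and Rpl11, ribosomal proteins of the large subunit, did not pass, at 44.3 and 39.4 TPM in DOX against 40.4 and 26.7 TPM in Control for Rpl5, and 9.94 and 11.5 TPM in DOX against 14.8 and 9.80 TPM in Control for Rpl11. Rpl5 passed as a rise in 3 of 14 alternatives, those with the replicate block, without Control replicate 1 and without DOX replicate 2. Rpl11 passed in 1, as a fall, without Control replicate 2. The levels of both carry the uncertainty given above for genes named as ribosomal.

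**Figure D5:**
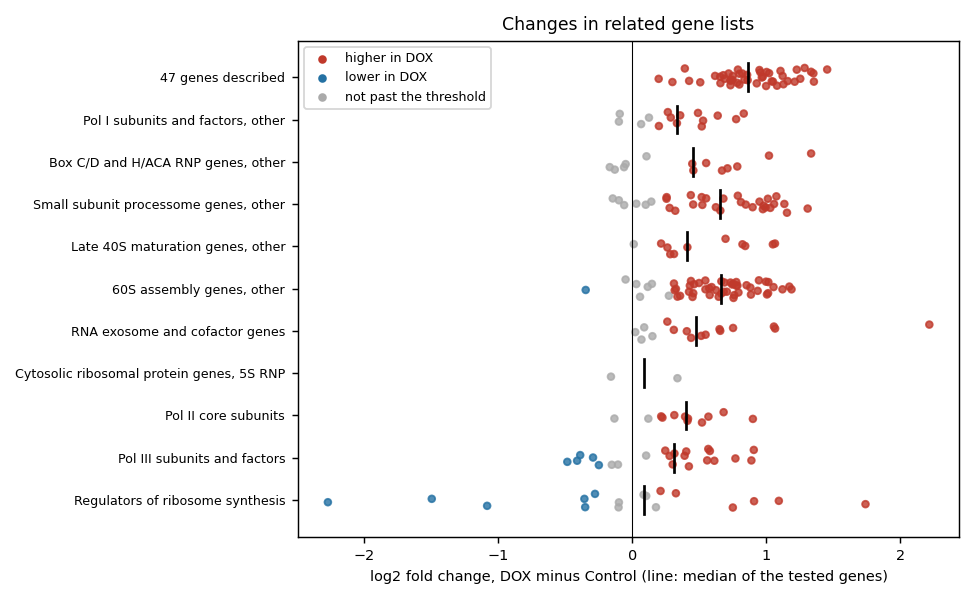
Log2 fold change (DOX minus Control) of each tested gene in the 47 genes and in 10 related lists, with red for genes that rose, blue for genes that fell and grey for genes that did not pass the test, and a black line at each list's median. The 47 genes lie to the right of 0 in full, 5 genes of the RNA polymerase III list fell, and the regulators spread from -2.27 to 1.74.

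Of 17 tested regulators of ribosome synthesis, 6 rose and 6 fell (median 0.08), shares close to the 29.0% that rose and the 35.4% that fell among all genes tested. Myc was at 495 and 558 TPM in the DOX libraries, against 168 and 147 TPM in the Control libraries (log2 fold change 1.74, SE 0.08, limma adjusted p = 2.8e-07). Mxi1 and Mxd1 fell. Mxi1 was at 20.5 and 21.6 TPM in the DOX libraries, against 60.1 and 62.2 TPM in the Control libraries (-1.50, SE 0.07), and Mxd1 at 2.03 and 2.51 TPM, against 5.29 and 6.58 TPM in the Control libraries (-1.08, SE 0.15). Mnt also fell (-0.36). Rb1, which encodes the retinoblastoma protein, was at 8.72 and 8.98 TPM in the DOX libraries, against 42.2 and 51.3 TPM in the Control libraries (-2.27, SE 0.10, limma adjusted p = 2.0e-07). Mdm2 (-0.35) also fell. Eif4ebp1 (1.09), Mga (0.91), Trp53 (0.75), Cdkn2a (0.32) and Max (0.21) rose. The calls of Cdkn2a and Max were the least firm, passing in 10 and 9 of 14 alternatives, with adjusted p up to 0.16 and 0.14. The call of Cdkn2a was lost without either Control library and without DOX replicate 2, and that of Max without Control replicate 1 and without DOX replicate 1. Both genes lost their call in further alternatives too.

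Promoter sequence was compared as a description, from RefSeq windows of 250 bases before to 50 bases after each gene's start (GRCm38.p6, an older build than that of the deposited tables). They covered 41 of the 47 genes. There was no window for Rrs1, Npm1, Wdr36, Fbl, Bop1 and Rrp12. The E-box CACGTG, the sequence that MYC and MAX bind, was present in the windows of 9 of the 41 genes (21.95%), against 8.09% of all 27025 genes in the table. In Utp4, Ltv1, Utp20, Pes1, Tsr1 and Wdr43 it lay only after the start. All 41 genes were tested for expression, while the background also holds genes that were not, and shares over tested genes alone were not computed. CCGGAAG, a core motif of ETS factors, was present in 15 of the 41 (36.6%) on either strand, against 9.93% of all genes. The palindromic motif of NRF1 was present in 0 of the 41, against 1.07% of all genes. CACGTG and CCGGAAG cannot overlap. The median log2 fold change was 0.86 in the 9 genes with CACGTG and 0.96 in the 32 without it, and Rrn3, which changed least, holds 2 copies. For CCGGAAG it was 0.86 in the genes with the motif and 0.95 in those without it. Rrn3 holds CCGGAAG as well, in a copy that crosses the start and so is not in capitals below. Differences in change by motif were not tested. Below are the 120 bases before the start for the 3 genes with CACGTG within them, and for the 2 genes with the largest change among those that hold CCGGAAG there and no CACGTG in the window, with both motifs in capitals, 5′ to 3′ on the strand of the gene. Nop2 lies at chr6:125131763-125131882 (plus strand), Utp18 at chr11:93885767-93885886 (minus strand), Rrn3 at chr16:13780579-13780698 (plus strand), Heatr1 at chr13:12395255-12395374 (plus strand) and Nhp2 at chr11:51619653-51619772 (plus strand).
Nop2: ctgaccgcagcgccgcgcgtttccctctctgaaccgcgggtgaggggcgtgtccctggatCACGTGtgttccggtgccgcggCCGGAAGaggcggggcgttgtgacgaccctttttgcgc
Utp18: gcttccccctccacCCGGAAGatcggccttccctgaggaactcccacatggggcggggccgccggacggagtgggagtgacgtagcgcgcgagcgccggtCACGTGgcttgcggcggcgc
Rrn3: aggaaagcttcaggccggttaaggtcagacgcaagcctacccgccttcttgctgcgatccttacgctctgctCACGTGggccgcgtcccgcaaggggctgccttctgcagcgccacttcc
Heatr1: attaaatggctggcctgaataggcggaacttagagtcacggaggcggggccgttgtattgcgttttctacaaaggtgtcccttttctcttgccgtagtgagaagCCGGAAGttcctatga
Nhp2: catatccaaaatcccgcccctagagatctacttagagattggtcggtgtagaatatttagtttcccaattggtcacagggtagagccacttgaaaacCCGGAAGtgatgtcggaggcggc
The log2 fold changes of these genes, in that order, were 0.86, 0.66, 0.20, 1.35 and 1.25. The last 2 were chosen for the size of their change, so these values rank neither motif.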

How the data were processed

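Per the labels' protocols, total RNA was column-purified and mRNA libraries were made for Illumina sequencing. The authors deposited TPM and FPKM tables, with genome build mm39 per the submitters' processing notes. Aligner, quantifier and annotation: not given in the sources used here. TPM were a library-wide constant (3.08 to 3.14) times FPKM, and no steps of whole reads were found, so depth is unknown.

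In R 4.3.3 with limma 3.58.1, genes averaging 1 TPM or more were tested on log2(TPM + 1), which understates changes of low genes (lmFit, eBayes with trend, no covariate, Benjamini-Hochberg threshold 0.05), and the script was tested on simulated data. The 47 genes and the further lists were chosen with earlier results of these data known. Library values are given for the first 3 genes of each role by change, for all genes of the box C/D, H/ACA, PeBoW and RNA polymerase I groups, and where replicates differed by over 1.3 times. Others, among them Npm1, Ebna1bp2 and the genes under 10 TPM, were chosen after their values were seen. Of each further list, the 3 largest changes and all falls are named, except a few genes that are not reported here.

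Transcripts of the 47 genes were matched to 13607 GENCODE M21 pseudogene transcripts with blastn 2.17.0 (97% identity over at least 100 bases).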

Additional observations from a re-analysis of the deposited data

How the results depend on the processing

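The number of the 47 genes that rose was 45 to 47 in every one of 14 alternatives, and 0 fell in each. It was 46 of 46 tested with FPKM, 45 of 45 tested at a mean of at least 5 TPM, 46 under quantile normalization and 46 under a robust variance model. Of 655 single-gene values, 5 lost their call and 0 changed direction. The lost calls, of Rrn3, Nop56 and Rrp1b, stand beside those genes, and the cause was not tested. The median log2 fold change of 0.86 became 0.95 with a pseudocount of 0.1, 0.93 with 0.5, 0.93 at a mean of at least 5 TPM, 0.89 with FPKM, 0.91 under median-of-ratios scaling, 0.93 under quantile normalization, and 0.95 without the 4 genes under 10 TPM. With each replicate left out in turn it was 0.85 to 0.95, with 46 to 47 genes higher. Over all genes, 3295 rose and 4017 fell, against 3649 and 3674 under median-of-ratios scaling and 3870 and 3356 under quantile normalization. The replicate numbers in the titles are not said to pair cultures, and same-numbered deviations correlated at -0.0053 across genes. With the replicate block, 47 of the 47 genes rose with a median of 0.86, and over all genes 3387 rose and 4114 fell; it changed no call of the 47 genes. Of 2194 values over 157 genes that passed (those of the further lists, and Cxcl14), 57 lost their call and 0 changed direction. Pseudogenes with near-identical stretches were found for Npm1 (5), Nop56 (4), Ddx18 (3), Fbl (2), Mrto4 (2) and Wdr12 (1), so the levels of those 6 genes are uncertain.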
